A study of Mus musculus with 57 samples.

Results

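The 10 genes described here encode proteins that coat lipid droplets or control how fat enters and leaves them: Cidec, Cidea, Cideb, Plin2, Plin4, Plin5, Hilpda, G0s2, Pnpla2 and Cd36. They are 10 of the 54307 genes in the deposited table, matched by symbol, and all 10 were found. The group was chosen by an earlier result of these data, that Cidec was higher with all 7 compounds than in vehicle mice. Cidec's own difference from vehicle is therefore given as a description with no test, and the question was which of the other 9 members followed it. Livers came from 57 male wild-type C57BL/6JJcl mice, aged 6 weeks and acclimatised for 1 week, that were fasted for 12 h, given a compound or a vehicle, and killed 24 h later. By gavage, 4 mice received alpha-naphthyl isothiocyanate (ANIT, which injures bile ducts), 6 acetaminophen (APAP), 7 4,4'-methylene dianiline (MDA, another bile duct toxicant), 5 thioacetamide (TAA) and 13 a solution of 0.5% methylcellulose (Ctrl). By intraperitoneal injection, 7 mice received carbon tetrachloride (CCl4), 4 galactosamine (GAL) and 2 saline (CIP), and by tail vein 7 received concanavalin A (ConA, a lectin that activates T cells) and 2 saline (CIV). Every mouse was fasted, controls included, the compounds' amounts per mouse are not given in the sources used here, and corn oil is named as a vehicle but no group is a corn oil control. The RNA came from a perfused piece of the outer left lateral lobe, and in such bulk tissue a change in the number of cells of a type and a change in RNA per cell cannot be told apart.

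Lipid droplets store triglyceride and sterol esters inside a phospholipid monolayer covered by proteins. Perilipins shield the stored fat from lipases, CIDE proteins let droplets exchange and merge their contents, and adipose triglyceride lipase, the product of Pnpla2, starts the breakdown of triglyceride. In liver, droplets fill during fasting, when fatty acids arrive from adipose tissue, and many droplet genes are targets of the nuclear receptor PPAR alpha, while Hilpda is known as a gene induced by hypoxia.

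Promoters of the members that moved most with Cidec are shown because PPAR alpha and hypoxia-inducible factors act through short motifs in such stretches. The RefSeq table of start sites (GRCm38.p6) held 12 start sites for 9 members, Cidea being the one without an entry used here. In the 250 bases before each start, 2 motifs were searched on both strands: AGGTCA, the half-site of nuclear receptors, and the hypoxia response core, ACGTG or GCGTG. Among 32841 windows of that length, 14.03% held AGGTCA and 38.6% a hypoxia core. Of the 12 windows of the members, 3 held AGGTCA and 6 a hypoxia core. The windows are written in lower case in the direction of transcription, with matches in capitals. Cidec has 2 starts on chromosome 6, minus strand. The downstream one, at chr6:113434765-113435014, had 1 hypoxia core starting 79 bases before transcription, and the upstream one, at chr6:113435761-113436010, had no match.
Cidec downstream start: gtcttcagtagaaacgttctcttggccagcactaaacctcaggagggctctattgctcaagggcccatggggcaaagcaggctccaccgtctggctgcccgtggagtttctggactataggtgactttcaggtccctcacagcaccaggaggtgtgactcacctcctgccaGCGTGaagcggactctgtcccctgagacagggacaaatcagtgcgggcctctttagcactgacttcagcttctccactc
Cidec upstream start: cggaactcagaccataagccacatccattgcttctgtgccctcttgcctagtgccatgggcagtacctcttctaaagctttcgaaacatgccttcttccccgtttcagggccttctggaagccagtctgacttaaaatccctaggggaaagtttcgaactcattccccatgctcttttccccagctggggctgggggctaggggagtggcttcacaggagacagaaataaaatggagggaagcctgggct
In Plin2 (chromosome 4, minus strand) 1 half-site at chr4:86670260-86670289 and 1 hypoxia core at chr4:86670129-86670157 were found, each shown with the bases beside it.
Plin2 half-site: tttcaggaccccTGACCTaagtcagacagc
Plin2 hypoxia core: ggttggggttccCACGCcctcatccccaa
Hilpda (chromosome 6, plus strand) had 3 hypoxia cores before its downstream start, of which those at chr6:29272503-29272531 and chr6:29272571-29272599 are shown.
Hilpda first core: caaccgcgagccGCGTGctttccgtgact
Hilpda second core: gatggccagcggACGTGccccagggcgag
The window of Plin4 held neither motif. A match describes letters only, and whether a factor binds there was not tested.

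Libraries held between 13826343 and 35075809 estimated counts, with a median of 21532116. Mitochondrial genes took between 5.12% and 39.3% of the counts. That share was highest with ConA, at 14.6% to 39.3% with a median of 24.4%, against 6.80% and 25.4% in CIV and a median of 14.5% over all mice, and its part in the ConA results was not tested. Levels are given in CPM, counts scaled by TMM over the 57 mice to a common library total. Longer genes had smaller lowest nonzero entries in the table (rho = -0.944, Spearman, over 4208 genes that are not independent of each other), so levels behave as corrected for length and may be ordered between genes. In the gavage controls Cideb led with a mean level of 290 CPM, followed by Plin2 at 235, G0s2 at 94.3, Pnpla2 at 54.6, Plin5 at 31.2, Cd36 at 18.7, Hilpda at 3.23, Plin4 at 0.910, Cidec at 0.772 and Cidea at 0.0533 CPM. Members next to each other in that order overlapped in their ranges over the 13 mice, except Cd36 (10.9 to 34.5 CPM) and Hilpda (1.25 to 5.63 CPM). A gene is called where edgeR's adjusted p, taken over all genes tested, is under 0.05.

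Cidec (ENSMUSG00000030278) enables fusion of droplets and is low in lean liver. Its level in the gavage controls ranged from 0.180 to 1.39 CPM with a median of 0.786. The saline mice stood at 0.609 and 0.751 CPM (CIP) and at 0.296 and 0.523 CPM (CIV). All 17 vehicle mice were thus at or under 1.39 CPM. With ANIT the 4 mice had 23.8, 54.0, 55.5 and 57.1 CPM. With TAA the 5 mice had 113, 189, 104, 86.0 and 98.8 CPM. With ConA the level ranged from 47.7 to 146 CPM, with a median of 91.7. The lowest level among these 3 groups, in an ANIT mouse, was 17.2 times that of the highest vehicle mouse. With MDA the level ranged from 19.3 to 92.6 CPM, with a median of 42.6. The 4 MDA mice numbered 1 to 4 had 20.3, 24.1, 42.6 and 19.3 CPM, below the 3 with higher numbers, which had 70.5, 92.6 and 70.3 CPM. The labels do not say what the numbers stand for. The summed level of 6 Kupffer cell markers split at the same numbers, at 222 to 264 and at 345 to 412 CPM, and its part was not tested. With APAP the 6 mice spread from 3.83 to 210 CPM, with a median of 17.9, the widest range of any group. GAL gave 22.2, 14.01, 10.2 and 19.8 CPM. CCl4 gave the lowest treated levels, from 2.54 to 9.72 CPM with a median of 5.75. Every one of the 40 treated mice lay above every one of the 17 vehicle mice, the closest being a CCl4 mouse at 1.83 times the highest vehicle level. As group means, the fold over the vehicle of the same route was 228 with ConA, 153 with TAA, 73.9 with APAP, 62.9 with MDA, 61.7 with ANIT, 24.4 with GAL and 8.67 with CCl4. Without APAP 8, the mouse at 210 CPM, the fold with APAP was 34.2, below those with MDA and ANIT. The order of the folds also depends on low vehicle means. That of the 2 CIV mice was 0.409 CPM and that of the gavage controls 0.772 CPM. The mean level itself was higher with TAA, at 118 CPM, than with ConA, at 93.4 CPM. Against all 17 vehicle mice the log2 fold change was 7.135 with ConA, and the largest of any compound was 7.419.

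**Figure D1:**
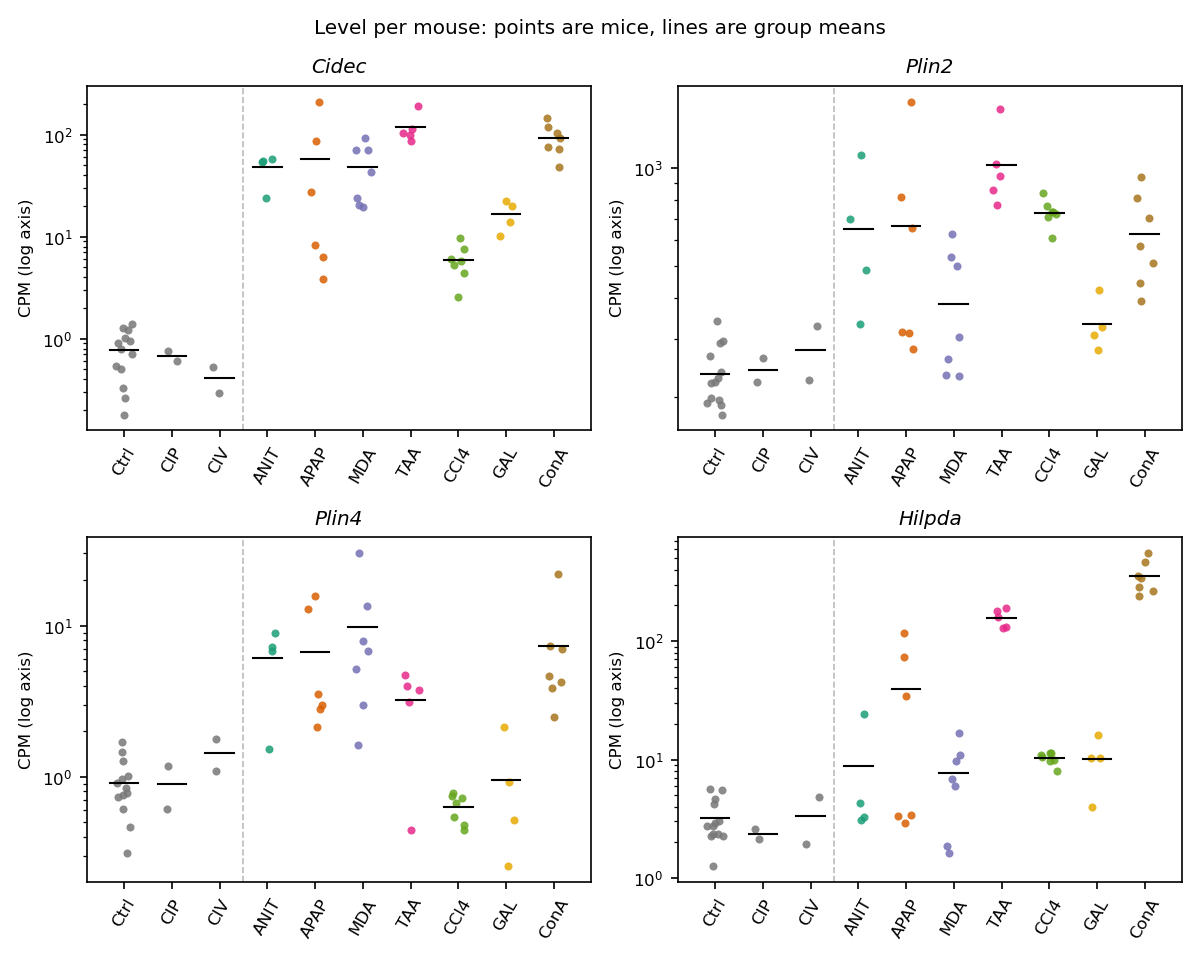
Level of Cidec, Plin2, Plin4 and Hilpda in each mouse (points, CPM on a log axis) by group, with the group mean as a line and the 3 vehicle groups in grey to the left of the dashed line. Cidec in all 40 treated mice lies above the vehicle maximum of 1.39 CPM, Hilpda reaches its highest levels with ConA and TAA, and Plin4 stays at vehicle level with CCl4.

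Of the other 9 members, Cidea passed the filter on low counts in no comparison with a vehicle, which left 8. Hilpda was called higher with all 7 compounds, Plin2 with 6 and Plin4 and Pnpla2 with 4 each. Cideb, Cidec's relative, was called lower with 6. With ANIT 6 were higher and 0 lower, where 28.2% of all genes tested were called in either direction. With APAP 3 were higher and 1 lower, at a background of 31.8%. With MDA 5 were higher and 2 lower, at a background of 33.8%. With TAA 4 were higher and 1 lower, at a background of 50.5%. With CCl4 2 were higher and 2 lower, at a background of 33.5%. With GAL 1 was higher and 2 lower, at a background of 28.5%. With ConA 3 were higher and 1 lower, at a background of 34.2%. The background counts both directions. The median log2 fold change of the 8 was 1.32 with ANIT, 0.99 with MDA, 0.75 with ConA, 0.53 with TAA, 0.37 with APAP, -0.20 with GAL and -0.40 with CCl4, beside medians over all genes between -0.014 and 0.099. Where mice numbered 1 to 4 only were compared, which leaves fewer mice, the calls of Hilpda with ANIT (1.97, adjusted p = 0.0938), of Plin2 (1.01, adjusted p = 0.0979) and Hilpda (4.29, adjusted p = 0.0827) with APAP, of Cideb (-0.41, adjusted p = 0.291), Plin2 and Hilpda with MDA, and of Cideb (-0.70, adjusted p = 0.169) and Plin4 (1.98, adjusted p = 0.150) with TAA ended. Calls over all genes fell there too, from 3967 to 1688 with ANIT and from 4436 to 824 with APAP. They fell from 4570 to 1292 with MDA and from 7247 to 2689 with TAA.

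**Figure D2:**
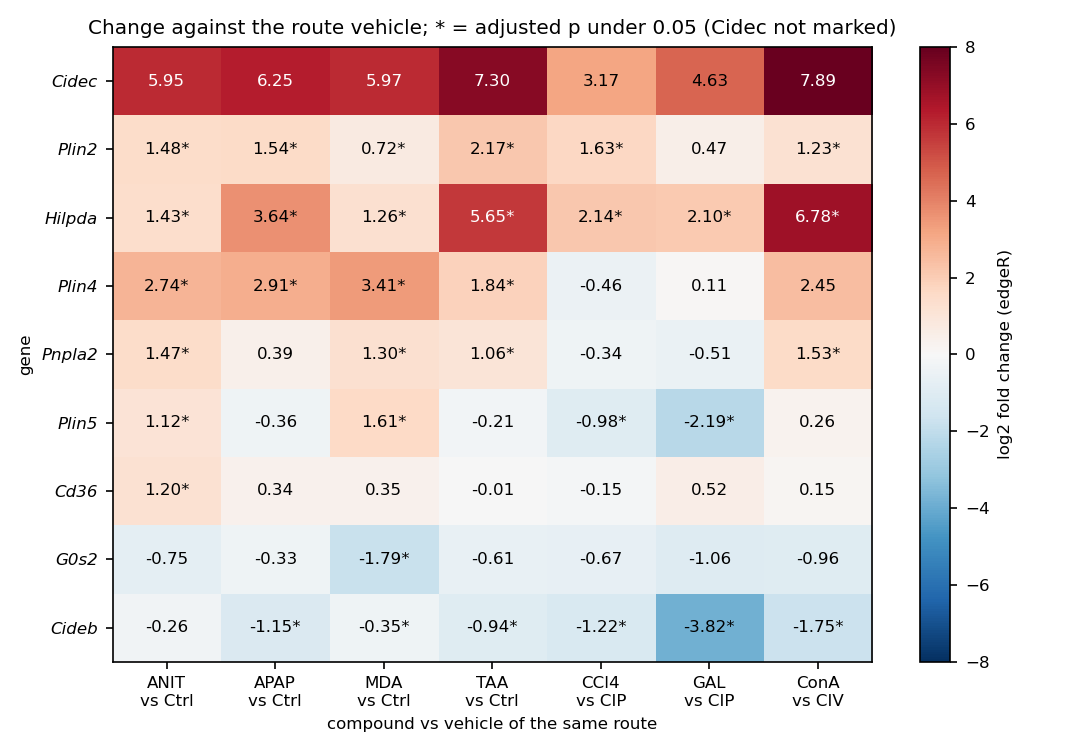
Log2 fold change of 9 members (rows) for each compound against the vehicle of its route (columns), red for higher and blue for lower. Stars mark edgeR adjusted p under 0.05. Cidec carries no star because its rise chose the group. The Hilpda row is starred in all 7 columns and the Cideb row in 6.

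When libraries were scaled by their totals and not by TMM, the median log2 fold change over all genes went from 0.083 to 0.844 with GAL, from 0.099 to 0.532 with CCl4, from 0.027 to -0.561 with ConA, from -0.014 to -0.234 with ANIT and from 0.069 to 0.224 with APAP. The split of higher and lower calls over all genes moved with it. It went from 1981 and 2435 to 5515 and 844 with GAL, and from 2759 and 2393 to 4565 and 1100 with CCl4. It went from 2381 and 2446 to 1101 and 3752 with ConA, from 1965 and 2002 to 822 and 2651 with ANIT, and from 2407 and 2029 to 2937 and 1113 with APAP. Among the members, the counts higher and lower went from 1 and 2 to 3 and 1 with GAL, where Plin5 was no longer called and Plin2 and Cd36 were called higher. They went from 3 and 1 to 1 and 1 with ConA, from 2 and 2 to 2 and 1 with CCl4 and from 6 and 0 to 5 and 1 with ANIT, and stayed as they were with APAP, MDA and TAA. No member called against its route vehicle changed direction under that scaling. Members that were not called and did change sign were Plin4, Pnpla2 and Cd36 with CCl4, Pnpla2 with GAL, and Plin5 and Cd36 with ConA.

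Plin2 (ENSMUSG00000028494), the main perilipin of liver droplets, ranged from 176 to 340 CPM in the gavage controls, with a median of 221. TAA gave 1025, 1514, 856, 769 and 942 CPM, all above every control (log2 fold change 2.17 ± 0.16 SE, adjusted p = 1.73e-09). CCl4 gave 611 to 836 CPM with a median of 730, against 221 and 262 CPM in the 2 saline mice (1.63 ± 0.14, adjusted p = 3.39e-05), again with no overlap. Of all compounds CCl4 thus had the lowest mean level of Cidec and the second highest of Plin2. ANIT gave 333, 696, 1092 and 487 CPM (1.48 ± 0.21), of which 3 of 4 were above the controls. APAP gave 279 to 1592 CPM with a median of 486 (1.54 ± 0.28), and 3 of 6 were above the controls. MDA gave 231 to 626 CPM with a median of 304 (0.72 ± 0.19), and 3 of 7 were above the controls. Those 3 were the mice with the higher numbers, at 626, 534 and 500 CPM. The change was 0.24 (adjusted p = 0.354) among mice numbered 1 to 4 and 1.19 (adjusted p = 0.000624) among those numbered above. ConA gave 393 to 939 CPM with a median of 577, against 328 and 226 CPM in the saline mice (1.23 ± 0.38, adjusted p = 0.0305). That call ended under library total scaling (0.65, adjusted p = 0.331) and without the filter on low counts (1.20, adjusted p = 0.0506), and was at the threshold among mice numbered above 4 (1.43, adjusted p = 0.05). It also ended without CIV 7 (1.57, adjusted p = 0.0618) or CIV 8 (0.97, adjusted p = 0.191), fits in which the 1 saline mouse left is assumed to vary like the treated mice. GAL gave 422, 326, 309 and 277 CPM, above both saline mice, and was not called (0.47 ± 0.20, adjusted p = 0.127), though it was under library total scaling (1.25).

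Plin4 (ENSMUSG00000002831), a perilipin best known from adipose tissue, was at 0.314 to 1.69 CPM in the gavage controls, close to Cidec's level there. With APAP it reached 2.14 to 15.8 CPM with a median of 3.26, all 6 mice above the controls (2.91 ± 0.39, adjusted p = 1.57e-05). With MDA it ranged from 1.62 to 30.1 CPM with a median of 6.81, and 6 of 7 mice were above the controls (3.41 ± 0.41). With ANIT the mice had 1.52, 8.92, 7.25 and 6.80 CPM, 3 of 4 above the controls (2.74 ± 0.35). With TAA they had 0.445, 4.72, 3.76, 3.11 and 3.98 CPM, 4 of 5 above the controls (1.84 ± 0.36). TAA, with the highest mean level of Cidec, had the smallest of these 4 Plin4 changes. ConA gave 2.50 to 21.9 CPM with a median of 4.68, above saline mice at 1.09 and 1.77 CPM, and was not called by edgeR (2.45 ± 0.86, adjusted p = 0.0501), while DESeq2 called it (2.42, adjusted p = 0.00341). Plin4 was not called with CCl4 (-0.46 ± 0.38) or GAL (0.11 ± 0.84), where its levels overlapped the saline mice.

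Plin5 (ENSMUSG00000011305), which tethers droplets to mitochondria, took opposite directions between compounds. With ANIT it reached 64.1, 83.2, 75.0 and 48.7 CPM, above all gavage controls at 24.3 to 40.7 CPM (1.12 ± 0.14, adjusted p = 1.90e-05). With MDA it reached 57.0 to 178 CPM with a median of 73.6, again above all controls (1.61 ± 0.20, adjusted p = 3.16e-06). The change was 0.83 (adjusted p = 0.0141) among mice numbered 1 to 4 and 2.22 (adjusted p = 1.06e-05) among those numbered above. With CCl4 it fell to 10.6 to 17.0 CPM, median 13.5, below saline mice at 28.4 and 25.0 CPM (-0.98 ± 0.17, adjusted p = 0.00199), and was not called when scaled to the library total (-0.55). With GAL it fell to 10.7, 3.82, 4.80 and 4.30 CPM (-2.19 ± 0.42, adjusted p = 0.0134), and was not called under library total scaling either (-1.40, adjusted p = 0.054). APAP (-0.36), TAA (-0.21) and ConA (0.26) gave no call, though with TAA it was called lower among mice numbered above 4 (-0.58, adjusted p = 0.003).

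The lipase and its inhibitors come next. Pnpla2 (ENSMUSG00000025509) ranged from 22.9 to 74.0 CPM in the gavage controls. ANIT gave 136, 159, 147 and 160 CPM, all above the controls (1.47 ± 0.19, adjusted p = 2.57e-05). MDA gave 103 to 194 CPM with a median of 131 (1.31 ± 0.17) and TAA 167, 110, 88.2, 82.1 and 99.2 CPM (1.06 ± 0.20), also without overlap. ConA gave 82.7 to 182 CPM with a median of 143, above saline mice at 60.1 and 40.3 CPM (1.53 ± 0.31, adjusted p = 0.00411), and was not called when scaled to the library total (0.86). Pnpla2 was not called with APAP (0.39 ± 0.26), CCl4 (-0.34 ± 0.13) or GAL (-0.51 ± 0.18). With CCl4 and GAL every treated mouse was below both saline mice, and DESeq2 called both (-0.40, adjusted p = 0.0135, and -0.52, adjusted p = 0.0259).

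Hilpda (ENSMUSG00000043421), a small inhibitor of that lipase, was at 1.25 to 5.63 CPM in the gavage controls. ConA raised it to 240 to 553 CPM with a median of 343, against 4.79 and 1.93 CPM in the saline mice (6.78 ± 0.60, adjusted p = 5.58e-05). TAA raised it to 133, 130, 160, 191 and 178 CPM (5.65 ± 0.25, adjusted p = 2.76e-12). Neither group overlapped its vehicle. With APAP the 6 mice fell far apart, with 117, 73.8 and 34.4 CPM in 3 of them and 3.43, 3.32 and 2.92 CPM, within the control range, in the other 3 (3.64 ± 0.58, adjusted p = 9.69e-05). The 3 APAP mice with low Hilpda also had the 3 lowest Cidec levels, 8.26, 6.29 and 3.83 CPM, and the 3 lowest Plin2 levels, 279, 313 and 316 CPM. The same 3 mice had the 3 lowest sums of 5 neutrophil markers in the group, 13.2, 19.4 and 17.7 CPM, against 41.3, 195 and 261 CPM in the other 3, and the part of neutrophils was not tested. CCl4 gave 8.02 to 11.3 CPM, median 10.4, above saline mice at 2.59 and 2.13 CPM (2.14 ± 0.18, adjusted p = 3.58e-05). GAL gave 3.95, 10.4, 16.0 and 10.3 CPM, also above them (2.10 ± 0.58, adjusted p = 0.0379). MDA gave 1.62 to 16.9 CPM with a median of 6.80, 5 of 7 above the controls (1.26 ± 0.35, adjusted p = 0.00809). The change was 0.88 (adjusted p = 0.285) among mice numbered 1 to 4 and 1.77 (adjusted p = 0.00099) among those numbered above. ANIT gave 3.24, 4.28, 24.3 and 3.07 CPM (1.43 ± 0.43, adjusted p = 0.0192), a call that rested on 1 mouse. Without ANIT 3 the change was 0.13 (adjusted p = 0.836), under library total scaling it was 1.19 (adjusted p = 0.0681), and with all 4 mice DESeq2 gave no adjusted p for it.

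G0s2 (ENSMUSG00000009633), another inhibitor of the lipase, was called with MDA only when all mice were compared, and lower there. Its level ranged from 39.1 to 202 CPM in the gavage controls and from 14.9 to 70.1 CPM with MDA, where 6 of 7 mice were below every control (-1.79 ± 0.35, adjusted p = 0.000469). The other 6 estimates were also below 0, from -0.33 with APAP to -1.06 with GAL, and none was called. Of these, TAA passed the threshold without TAA 3 (-1.29 in place of -0.61) and GAL without GAL 2 (-1.91 in place of -1.06). Among mice numbered above 4 it was called lower with TAA (-1.23, adjusted p = 0.049), CCl4 (-0.84, adjusted p = 0.0356) and GAL (-1.85, adjusted p = 0.0115). Of the 2 inhibitors of the lipase, Hilpda was thus called higher with all 7 compounds and G0s2 with none.

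Cideb (ENSMUSG00000022219), the CIDE protein normally made by hepatocytes and needed for lipid loading of lipoproteins, was at 227 to 374 CPM in the gavage controls. GAL lowered it to 46.3, 9.88, 8.17 and 13.2 CPM, against 274 and 269 CPM with saline (-3.82 ± 0.70, adjusted p = 0.0111). ConA lowered it to 42.0 to 105 CPM, median 72.1, against 305 and 201 CPM (-1.75 ± 0.30, adjusted p = 0.00182). CCl4 lowered it to 101 to 119 CPM, median 116 (-1.22 ± 0.09, adjusted p = 1.67e-05), and APAP to 89.1 to 170 CPM, median 129 (-1.15 ± 0.14, adjusted p = 5.00e-06). In these 4 groups no treated mouse overlapped its vehicle. TAA gave 262, 122, 109, 113 and 118 CPM, 4 of 5 below the controls (-0.94 ± 0.19). MDA gave 182 to 347 CPM with a median of 199 (-0.35 ± 0.13, adjusted p = 0.0354), a call that ended without the filter on low counts (-0.35, adjusted p = 0.0521). ANIT, at 269, 260, 185 and 251 CPM, was not called (-0.26 ± 0.13, adjusted p = 0.139), though it was under library total scaling (-0.48, adjusted p = 0.0149). Hepatocyte markers were lower with GAL and CCl4 as well. The summed level of 6 markers was 25290 to 32810 CPM with GAL and 18940 to 30240 CPM with CCl4, against 53100 and 59360 CPM in their saline mice. Their part in the fall of Cideb was not tested. With ConA and APAP the same sums overlapped those of the vehicle, at 39900 to 88360 and 65520 to 97640 CPM. Means of single markers moved there: that of Cps1, an enzyme of the urea cycle, went from 1047 to 373 CPM with APAP and from 991 to 446 CPM with ConA, and that of Ttr, a plasma protein, from 4938 to 2411 CPM with ConA. The means of Alb, Apoa1, Tat and Serpina3k were higher with ConA than in CIV. Of the 6 markers, 6 were called lower with CCl4 and with GAL, 1 higher and 3 lower with TAA, and 1 higher and 1 lower with APAP and with ConA. Cps1 and Ttr were thus not both called with ConA.

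The GAL calls depended on single libraries. Without 1 of the 2 saline mice the other is assumed to vary like the treated mice. The call of Cideb ended without CIP 7 (-3.74, adjusted p = 0.0577) or CIP 8 (-3.89, adjusted p = 0.0563), and that of Plin5 likewise (-2.02, adjusted p = 0.0789, and -2.33, adjusted p = 0.0632). The call of Hilpda ended without the filter on low counts (2.13, adjusted p = 0.0531) and without GAL 4 (2.10), GAL 7 (1.80), GAL 8 (2.10), CIP 7 (2.31) or CIP 8 (1.92). Without GAL 2, the mouse with the highest Cideb and Plin5 of the group, the change of Cideb was larger (-4.69, adjusted p = 0.000419).

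Cd36 (ENSMUSG00000002944), a fatty acid transporter of the cell surface, was called with ANIT only, at 28.7, 37.6, 29.1 and 76.3 CPM against 10.9 to 34.5 CPM in controls (1.20 ± 0.28, adjusted p = 0.00352). With the other 6 compounds its estimates lay between -0.15 and 0.52, and that with GAL was called under library total scaling (1.26). Cidea (ENSMUSG00000024526), the CIDE protein of brown fat, was low in every group. It was listed at 0 in 17 of 57 libraries and at or under 3 estimated counts in 33. The highest level in any mouse was 0.879 CPM, with ConA, and the 4 GAL libraries were all at 0. Its highest level in a vehicle mouse was 0.291 CPM, and 6 of 7 ConA mice, 4 of 5 TAA mice, 4 of 7 MDA mice and 3 of 6 APAP mice were above it. Without the filter on low counts it was called higher with MDA (2.18 ± 0.74, adjusted p = 0.0432) and TAA (2.66 ± 0.80, adjusted p = 0.0146) against the gavage controls. Against all 17 vehicle mice, also without the filter, it was called higher with MDA (1.98), TAA (2.45) and ConA (2.96, adjusted p = 0.000831) and lower with GAL (adjusted p = 0.0309).

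**Figure D3:**
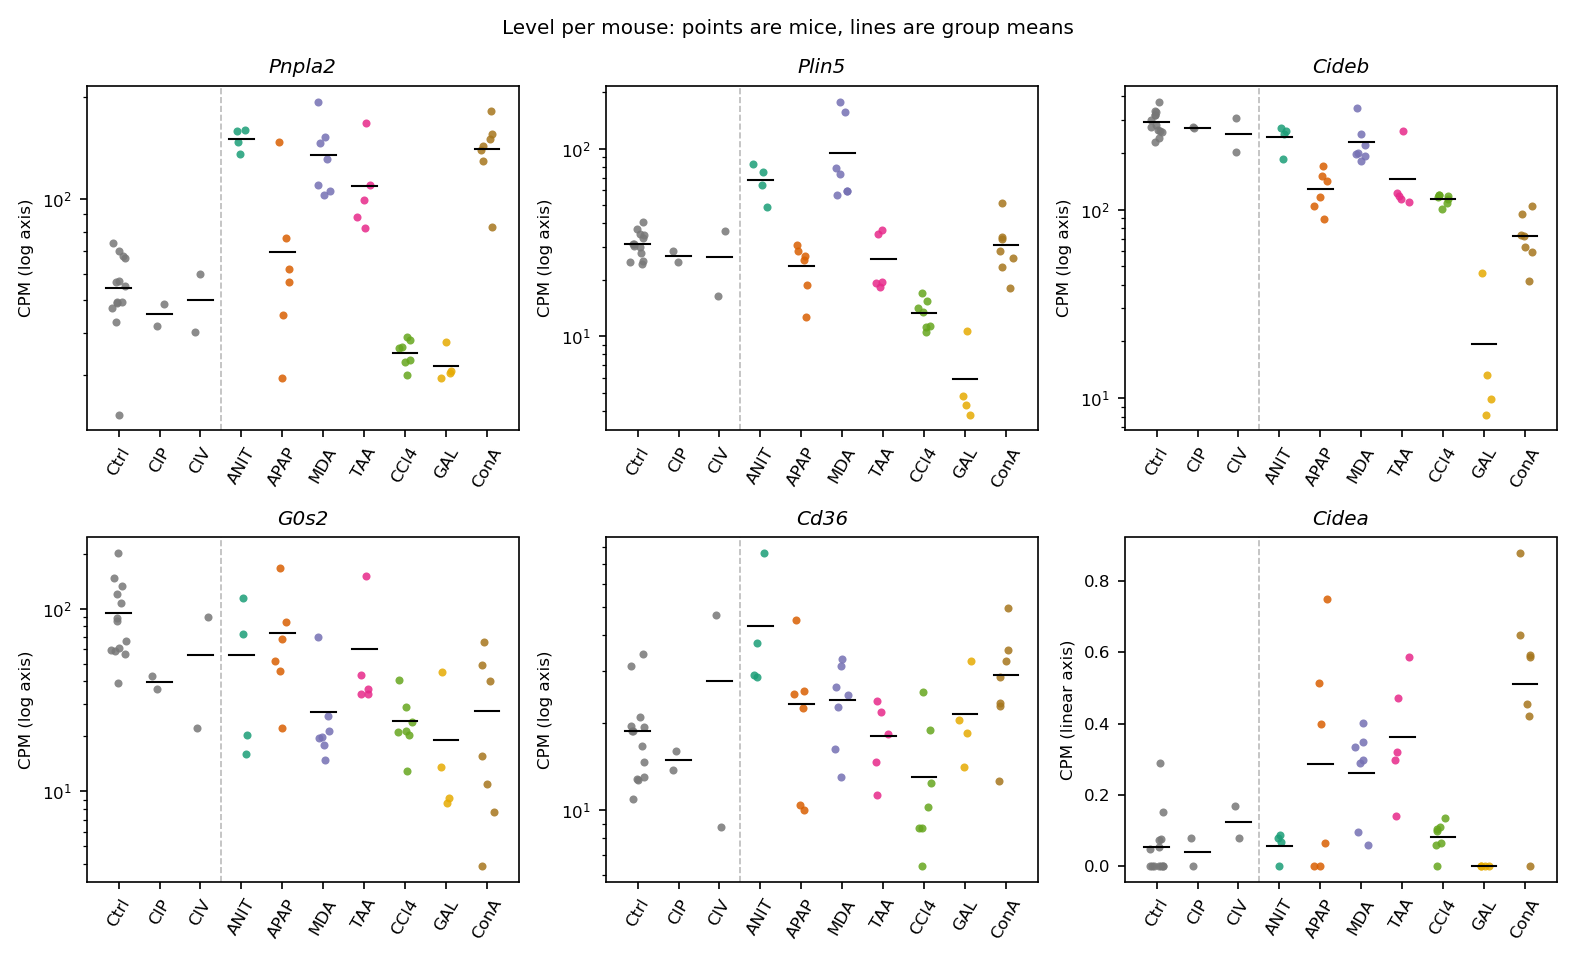
Level of the other 6 members in each mouse (points, CPM; log axes except for Cidea, which is linear because it includes 0) by group, with group means as lines. Cideb lies below its vehicle with GAL, ConA, CCl4 and APAP, and Plin5 lies above the controls with ANIT and MDA and below saline with CCl4 and GAL.

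Against all 17 vehicle mice the same compounds were compared with a larger control group that mixes routes. With ANIT again 6 members were higher and 0 lower (background 28.0%), with APAP 3 and 1 (33.4%), with MDA 5 and 1 (34.2%) and with TAA 4 and 1 (49.7%). With CCl4 2 were higher and 5 lower (53.4%), with GAL 2 and 4 (52.5%) and with ConA 5 and 2 (68.0%). Plin2 was called higher with all 7 compounds here, GAL included (0.44, adjusted p = 0.0169), and so was Hilpda. The call of Plin2 with GAL ended without GAL 2 (0.37, adjusted p = 0.0718), and that of Hilpda with ANIT without ANIT 3 (0.18, adjusted p = 0.769). Plin4 was called with ConA (3.02, adjusted p = 4.57e-09) and, lower, with CCl4 (-0.64, adjusted p = 0.0415), and the CCl4 call ended under library total scaling (-0.11, adjusted p = 0.750) and without the filter on low counts (-0.63, adjusted p = 0.0769). G0s2 was called lower with MDA, CCl4 (-1.81), GAL (-2.16) and ConA (-1.48). Pnpla2 was called lower with CCl4 (-0.62) and GAL (-0.76), and under library total scaling neither was (-0.07 and 0.095). Cd36 was called higher with ANIT (1.16) and ConA (0.70), the first not without ANIT 4 (0.73, adjusted p = 0.129) and the second not under library total scaling (0.05). Cideb was called lower with 5, MDA no longer among them. These comparisons share their control mice, and the injected compounds differ from most of those mice in route.

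The vehicles were compared with each other as a check. Between CIP and Ctrl 0 members were called, where 0.0131% of all genes were (edgeR; 1 member at an unadjusted p under 0.05). Between CIV and Ctrl 0 members were called, at a background of 0.0263%, with 0 at an unadjusted p under 0.05. DESeq2 called 114 and 75 genes of all kinds in these comparisons, against 2 and 4 by edgeR. Among the gavage controls, mice numbered 1 to 4 against those above gave 0 called members at a background of 2.33%, with 3 members at an unadjusted p under 0.05.

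Compounds given by the same route were then compared with each other in 7 pairs, which the choice of the group did not use, so that Cidec could be tested too. Cidec was lower with ANIT than with TAA (-1.35 ± 0.31, adjusted p = 0.0111) and lower with MDA than with TAA (-1.32 ± 0.40, adjusted p = 0.0218). The MDA call ended without TAA 3 (-1.09, adjusted p = 0.0678). Cidec was lower with CCl4 than with GAL (-1.55 ± 0.30, adjusted p = 0.00172), and the groups did not overlap. Plin2 went the other way in that pair and was higher with CCl4 (1.07 ± 0.12, adjusted p = 4.14e-05), as were Cideb (2.51 ± 0.43, or 3.37 without GAL 2) and Plin5 (1.12 ± 0.27). In the pair of CCl4 and GAL 4 members were called, at a background of 42.5%. ANIT against TAA gave 4 called members (background 26.2%). Besides Cidec, Hilpda was lower (-4.22 ± 0.67) and Plin5 (1.35 ± 0.28) and Cd36 (1.22 ± 0.33) were higher with ANIT. Without ANIT 3 the difference in Hilpda was -5.50, and the Cd36 call ended without ANIT 4 (0.79, adjusted p = 0.0590). MDA against TAA also gave 4 (background 30.0%): Cidec, Plin2 (-1.45 ± 0.29) and Hilpda (-4.39 ± 0.49) were lower and Plin5 (1.84 ± 0.36) was higher with MDA. Plin5 was higher with ANIT or MDA than with APAP or TAA in all 4 such pairs. It was higher with ANIT than with APAP (1.45 ± 0.26) and lower with APAP than with MDA (-1.95 ± 0.33). ANIT against APAP gave 2 called members (background 5.98%), the other being Cideb, higher with ANIT (0.86 ± 0.20, adjusted p = 0.0387). That call ended when any 1 of the 4 ANIT mice was left out (0.83 to 1.01), that of Plin5 ended without ANIT 2 (1.34), and both ended under library total scaling (0.47 and 1.05). APAP against MDA gave 2 (background 9.43%), the other being Cideb, lower with APAP (-0.79 ± 0.20), which was not called under library total scaling (-0.51). Between ANIT and MDA 0 members were called by edgeR and 0.0% of all genes, with 1253 genes and 1 member at an unadjusted p under 0.05, while DESeq2 called 78 genes. Cidec's difference there was -0.03 ± 0.46. Between APAP and TAA 0 members were called (background 2.62%), 1 at an unadjusted p under 0.05, and Cidec's difference was -1.03 ± 0.88.

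Mouse-to-mouse variation inside the groups gave a further view that the choice of the group did not use. The mean of each group was removed from log2(CPM + 1), and each member was related to Cidec over the 57 mice, with p-values from 100000 permutations within groups, two-sided, and adjusted over the 9 relations. Plin2 followed Cidec most closely, with Pearson's r = 0.790 (adjusted permutation p = 9.00e-05, from the smallest p that the permutations can give) and Spearman's rho = 0.655 (adjusted permutation p = 0.00054). Plin4 gave r = 0.592 (adjusted permutation p = 0.00139) and rho = 0.521 (adjusted permutation p = 0.00306). Hilpda gave r = 0.632 (adjusted permutation p = 0.0326) and rho = 0.373 (adjusted permutation p = 0.0424). G0s2 gave r = 0.335 (adjusted permutation p = 0.0326) and rho = 0.356 (adjusted permutation p = 0.0252). Without the 2 mice farthest from the median of Cidec, both given APAP, r was 0.714 for Plin2, 0.563 for Plin4, 0.500 for Hilpda and 0.181 for G0s2. The relation with G0s2 was thus weak without them, and these 4 values were not tested. Cidea (r = 0.470), Plin5 (0.294), Cideb (-0.145), Pnpla2 (0.102) and Cd36 (0.139) did not pass by Pearson's r, and Cidea passed by Spearman's rho (0.405, adjusted permutation p = 0.0252). Under library total scaling Cidea passed by Pearson's r as well (0.628, adjusted permutation p = 0.00129), and so did Plin5 (0.425, adjusted permutation p = 0.0291). With the replicate number range (1 to 4, or above) removed as well, r was 0.708 for Plin2, 0.455 for Plin4 and 0.628 for Hilpda. It was 0.381 for G0s2 (adjusted permutation p = 0.0238) and 0.015 for Plin5. Among 12833 genes ranked by r, Plin2 was first, Hilpda number 20 and Plin4 number 40, and the 5 genes outside the list with the highest r were Cntnap1 (0.783), St3gal1 (0.735), Mfsd2a (0.734), Zfp697 (0.731) and Pold4 (0.717). Within single groups, r between Cidec and Plin2 was 0.971 over the 6 APAP mice, 0.940 over the 7 MDA mice, 0.655 over the 7 ConA mice, 0.137 over the 7 CCl4 mice and 0.047 over the 13 gavage controls. For Plin4 it was 0.877 with APAP, 0.761 with MDA, -0.033 with ConA, 0.683 with CCl4 and 0.112 in the gavage controls. For Hilpda it was 0.828 with APAP, 0.779 with MDA, 0.346 with ConA, -0.193 with CCl4 and 0.069 in the gavage controls. Over the 40 treated mice alone r was 0.848 for Plin2, and over the 17 vehicle mice alone it was 0.005. The difference between these was not tested.

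**Figure D4:**
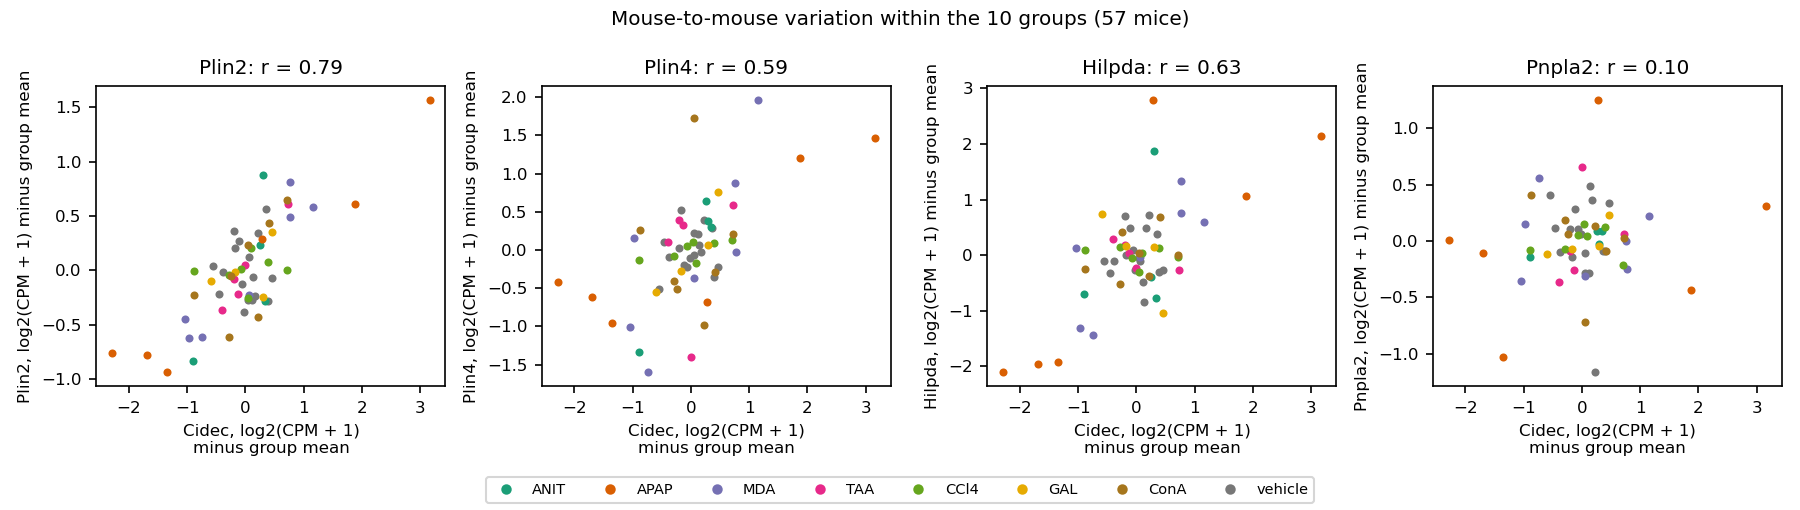
Each mouse's deviation from its group mean in Cidec (horizontal axis) against that in Plin2, Plin4, Hilpda and Pnpla2 (vertical axes), both in log2(CPM + 1), with colours for groups. The points rise together for Plin2 (r = 0.79), Plin4 (0.59) and Hilpda (0.63) and show no trend for Pnpla2 (0.10).

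Over the 10 group means, which include the contrast that chose the group and are a description only, the members most like Cidec were Hilpda (r = 0.796), Plin2 (0.790), Plin4 (0.786), Pnpla2 (0.701) and Cidea (0.687), and the least like were G0s2 (-0.173) and Cideb (-0.351). Among 12833 genes ranked this way, Hilpda was number 341, Plin2 number 363, Plin4 number 383 and Pnpla2 number 878. Of those 12833 genes, which were tested with all 7 compounds, the 5 most like Cidec outside the members were Inhbb (0.990), Rasd1 (0.979), Hmox1 (0.967), Rbm3 (0.957) and Socs3 (0.955).

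Genes of the same pathways were read from lists, beside the route backgrounds above. Of 12 fasting and PPAR alpha targets, 8 were called higher and 0 lower with ANIT, 8 and 0 with TAA and 7 and 0 with ConA, while CCl4 gave 1 and 8, APAP 3 and 5, GAL 3 and 4 and MDA 2 and 2. Of the hypoxia targets tested, 8 of 9 were higher and 1 lower with TAA and with ConA, and 4 and 1 with APAP, 3 and 2 with MDA, 2 and 2 with CCl4 and 1 and 1 with ANIT. With GAL 1 of 10 was higher and 3 were lower. Among them Adm, the vasodilator adrenomedullin, went from 1.46 to 85.2 CPM with TAA and from 1.31 to 352 CPM with ConA. The list median log2 fold change was 1.76 with TAA and 2.74 with ConA. The 1 that was lower with both was Pdk1, a kinase that holds back pyruvate oxidation. Of 8 genes of lipolysis, 2 to 5 were lower and at most 1 higher with each compound, and Aadac, a lipase of the endoplasmic reticulum, was lower with all 7 (-0.71 to -2.67). Of 14 genes of triglyceride and sterol ester synthesis, Gpat3, an enzyme of the first step, was higher with all 7 (1.55 to 3.61), while Gpam, which does the same step at mitochondria, was lower with 6. Over that list 3 were higher and 2 lower with ANIT, 5 and 3 with MDA and 2 and 6 with TAA. The counts were 2 and 5 with APAP and with CCl4, and 1 and 5 with GAL and with ConA. Of 11 lipid transcription factors, Srebf1 (-1.56 to -3.79) and Mlxipl (-1.34 to -2.48), which drive fat synthesis after feeding, were lower with all 7. Hif1a was higher with 5 and Creb3l3 with 4. Over that list 3 were higher and 3 lower with ANIT and with MDA, 3 and 4 with APAP and 5 and 5 with TAA. The counts were 1 and 7 with CCl4, 0 and 6 with GAL and 4 and 3 with ConA. Of the 7 genes of VLDL export, 0 were higher and 6 lower with GAL, 1 and 4 with CCl4, 0 and 3 with ConA, 0 and 1 with TAA, 1 and 1 with APAP, 3 and 0 with ANIT and 4 and 0 with MDA. Of 14 genes of fatty acid uptake and activation, 0 were higher and 7 lower with GAL, 2 and 6 with CCl4, 1 and 6 with MDA, 0 and 5 with ANIT, 2 and 4 with APAP, 4 and 4 with TAA and 3 and 2 with ConA. Of the 9 other droplet structure genes tested, 0 were higher and 4 lower with APAP, 2 and 4 with CCl4, 1 and 3 with ConA, 1 and 2 with GAL, 2 and 2 with MDA, 3 and 1 with TAA and 2 and 0 with ANIT. Called shares of these lists such as 6 of 9 with CCl4 are to be read against the 33.5% of all genes called there.

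**Figure D5:**
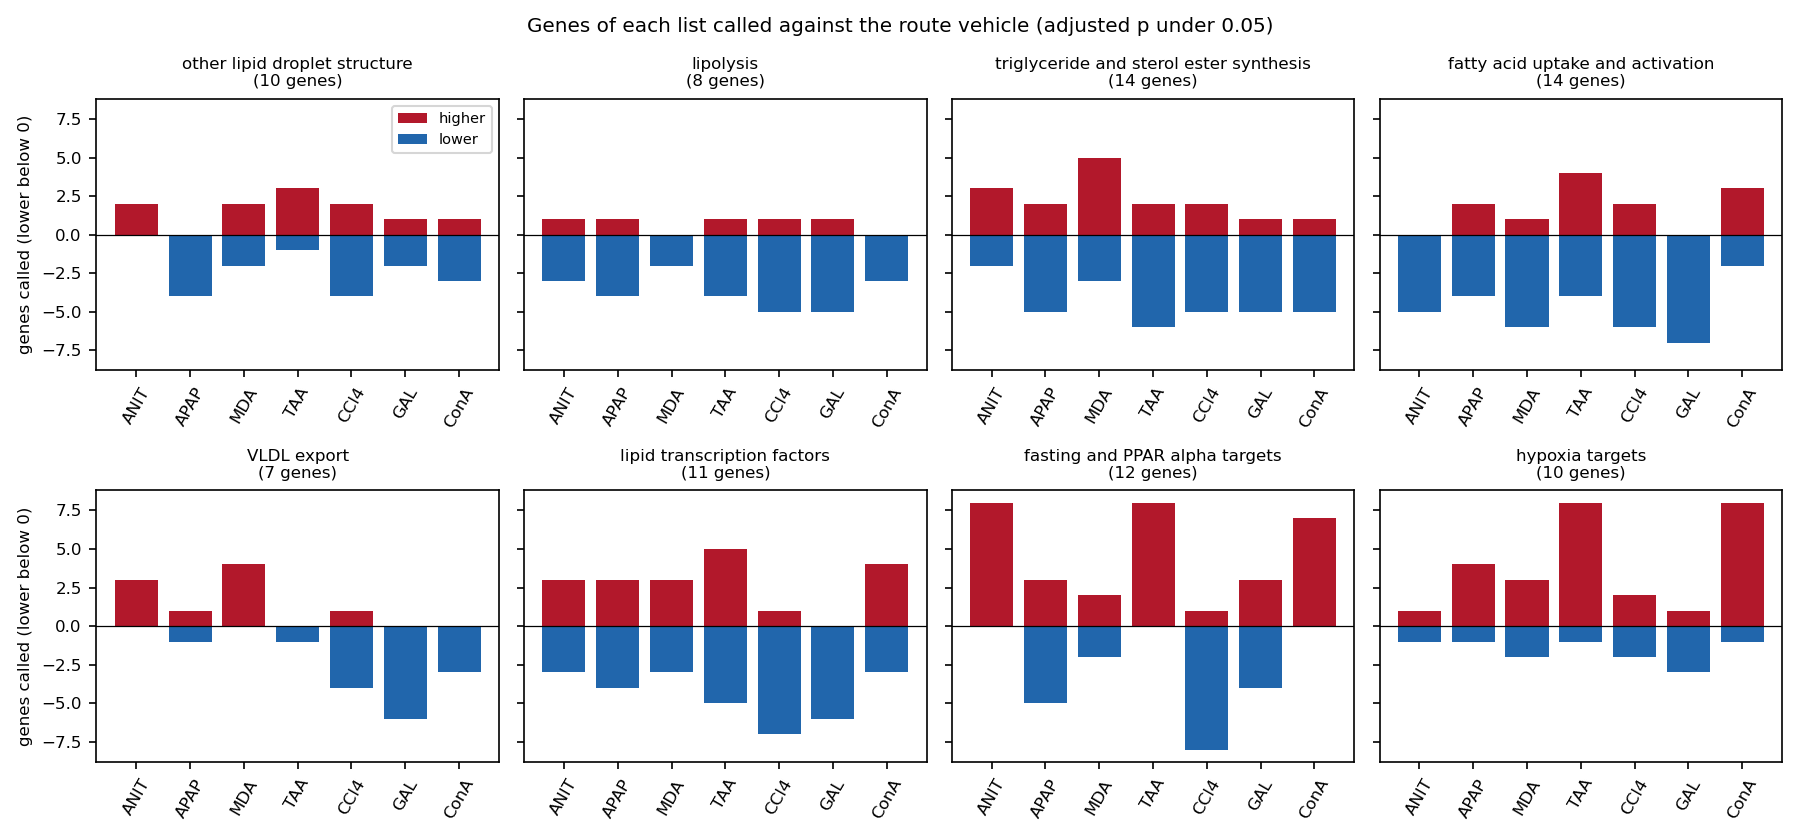
Number of genes in each of 8 pathway lists called higher (red, above 0) or lower (blue, below 0) against the route vehicle, by compound. PPAR alpha targets are called higher 8 times with ANIT and with TAA, and hypoxia targets 8 times with TAA and with ConA.

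Because Cidec, Cidea and Plin4 are genes of fat cells, adipocyte markers were read as well. Lep was at 0 in all 57 libraries, Adipoq reached 0.563 CPM at most and Plin1 0.335 CPM, both in treated mice. The summed level of the 6 adipocyte markers, nearly all of it Lipe, a lipase gene, ranged from 5.88 to 10.4 CPM in the gavage controls, 3.94 to 6.41 CPM with TAA and 3.66 to 8.44 CPM with ConA. The other markers apart from Lep were low, and their means were higher with both compounds than in the vehicle of the route. From the gavage controls to TAA, Adipoq went from 0.00432 to 0.0370 CPM, Plin1 from 0.0383 to 0.0969, Retn from 0.0241 to 0.0626 and Cfd from 0.0754 to 0.173 CPM. With ConA the means were 0.0918, 0.0272, 0.0747 and 0.259 CPM, against 0 for the first 3 of them and 0.0313 CPM for Cfd in CIV. CIV has only 2 mice, and Plin1 with ConA was under the mean of the gavage controls. Adipoq was at 0 in 5 of 7 ConA libraries, and its highest level there was 0.563 CPM. GAL had the highest group means of Adipoq, 0.213 CPM against 0.0159 CPM in CIP, and of Cfd, 0.342 against 0.124 CPM. The part of fat cells in the levels of the members was not tested. By group median, the sum of 5 neutrophil markers was highest in the 2 groups with the highest Cidec and Hilpda. It was 157 to 814 CPM with TAA and 126 to 287 CPM with ConA, against 2.11 to 60.9 CPM in the gavage controls and 7.82 to 8.85 CPM in CIV. Inside TAA, the mouse with the highest sum, TAA 7, had the lowest Cidec of the group, 86.0 CPM, and the highest Hilpda, 191 CPM. The mouse with the lowest sum, TAA 1, had Cidec at 113 CPM and Hilpda at 133 CPM. Of the neutrophil markers tested, 5 of 5 were called higher with TAA, 4 of 5 with ConA and 4 of 4 with GAL. The sum of 5 monocyte markers was 93.6 to 156 CPM with TAA, against 27.8 to 109 CPM in the gavage controls, and 3 of the 5 were called higher. With APAP it was 73.8 to 196 CPM, with 4 of 5 called higher, and with GAL 135 to 237 CPM against 54.9 and 91.2 CPM in CIP, with 3 of 5. With ConA that sum was 26.2 to 50.9 CPM against 54.0 and 83.1 CPM in CIV, with 2 markers called higher and 1 lower. The sum of 6 Kupffer cell markers was 44.5 to 79.1 CPM with ConA against 362 and 404 CPM in CIV, and all 6 were called lower. Of 5 markers of sinusoidal endothelium, 4 were called lower and 1 higher with TAA, 3 and 1 with ConA and 3 and 0 with CCl4. Of 5 stellate cell markers, 4 were called lower with MDA, 2 each with ANIT, CCl4 and ConA, and 2 higher with APAP. With TAA 1 was higher and 1 lower, and with GAL 0 were called. Of the B cell markers tested, 3 of 3 were called higher with TAA, and 2 were lower with ANIT and with MDA. The part of these cells in the results was not tested.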

How the data were processed

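RNA from 57 livers was sequenced single-end after a stranded mRNA preparation, per the labels' protocols. The deposited table holds an estimated count per gene and mouse. Salmon 1.6.0, R 4.1.3 and the GRCm39 build are named in the submitters' processing notes, and annotation and strand use are not given in the sources used here. Of the tests planned for different units, that for estimated counts applied. The members and lists were chosen with earlier results of these data known.

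GENCODE M21 supplied a symbol for 51482 IDs and none for 2825. Counts were rounded for edgeR 4.0.16 (R 4.3.3, limma 3.58.1): each comparison was fitted on its own groups with TMM scaling, filterByExpr and the two-sided quasi-likelihood test, adjusted by Benjamini-Hochberg over all genes tested. Genes beyond the members were named by rule: in each list, the 3 called with most compounds in each direction, and the 5 most like Cidec. The text gives only some of them as examples, picked after their values were seen. The replicates are separate mice by their labels. The fits were tested on simulated data, where changes were missed most often in the comparisons with 2 saline mice. Alternatives were DESeq2 1.42.0, library total scaling, no low count filter, the replicate block, number ranges and leaving out mice in groups of 2 to 5. Comparisons within number ranges and alternatives for the vehicle comparisons were chosen after seeing the data.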

Additional observations from a re-analysis of the deposited data

Results flagged for a closer look

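In 68 sets of 4 to 7 mice (a member in a group), 6 had 1 mouse standing apart from the rest by the size of its gap. The gap limit is set for about 1 in 20 among independent, normal values. Members share mice and levels were not logged, so that rate may not hold here and no excess is read from it. Cidec in ANIT 1 was 23.8 CPM, against 54.0 to 57.1 CPM in the other 3. Hilpda in ANIT 3 was 24.3 CPM against 3.07 to 4.28 CPM. Cideb in TAA 1 was 262 CPM, within the range of the controls, against 109 to 122 CPM, and Plin4 in the same mouse was 0.445 CPM against 3.11 to 4.72 CPM. G0s2 in TAA 3 was 151 CPM against 34.3 to 43.5 CPM, and G0s2 in MDA 1 was 70.1 CPM against 14.9 to 25.8 CPM.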

How the results depend on the processing

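In no comparison with 3 or more pairs were all correlations of same-numbered mice above 0.1. That check looks at single numbers and cannot speak on number ranges. Summed Kupffer cell markers were 208 to 270 CPM in gavage controls numbered 1 to 4 and 381 to 604.5 CPM in those above. With MDA they were 222 to 264 and 345 to 412 CPM. With TAA and ConA the order was reversed, and with APAP, CCl4 and GAL the ranges overlapped. All ANIT mice were numbered 1 to 4, and most gavage controls above. What the numbers stand for was not tested. With the replicate block, calls over all genes went from 3967 to 962 with ANIT, from 4436 to 230 with APAP, from 3559 to 117 in ANIT against TAA, from 4118 to 1424 in MDA against TAA, from 826 to 0 in ANIT against APAP and from 1272 to 0 in APAP against MDA. Called members went from 6 to 3 with ANIT, from 4 to 0 with APAP, from 4 to 0 in ANIT against TAA, from 4 to 1 in MDA against TAA, and from 2 to 0 in both ANIT against APAP and APAP against MDA. Among mice numbered 1 to 4 only, they went from 4 to 2 with APAP, from 7 to 4 with MDA and from 5 to 3 with TAA, with fewer mice, and Rab18 with TAA turned to -0.017. Calls over all genes went from 4436 to 824 with APAP, from 4570 to 1292 with MDA and from 7247 to 2689 with TAA in the same fits. Scaling to the library total took the count from 4 to 2 with ConA and from 2 to 0 in ANIT against APAP. It turned Agpat3 (0.094) with GAL, Pnpla2 with GAL against all 17 vehicle mice (0.095) and Plin5 with ConA against all 17 (-0.534, adjusted p = 0.00682). In ANIT against APAP no filter gave 1, the number range as a covariate 1, and leaving out a mouse 0 to 1. DESeq2 gave 5 in APAP against MDA. Leaving out a mouse gave 0 (without CIP 7) to 5 (without GAL 2) with GAL, where 3 were called. Of the 4 relations with Cidec inside groups, 0 passed in the 17 vehicle mice alone, where Hilpda's r was -0.001. The median likeness of the members to Cidec over group means went from 0.687 to 0.582 over the 7 treated groups. The cause of these shifts was not tested. Depth limits Cidea and, in vehicle mice, Cidec and Plin4.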
